A study of Mus musculus with 2 samples.

Results

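RNA polymerases I, II and III copy the nuclear genome, and the genes studied here encode their subunits and the general transcription factors that load them onto promoters. Members were rows of the 2 count tables whose symbol begins with Polr1, Polr2, Polr3, Gtf2 or Gtf3 followed by a letter, with at least 20 counts summed over both libraries. Of 51 rows with such a symbol 50 reached that minimum, of 13027 genes in the whole data that did. They comprise 28 polymerase genes and 22 general factor genes. The member with the fewest counts was *Polr2k*, with 49 in the TSA library and 103 in the untreated library. The row below the minimum was *Gtf2a1l*, for a germ cell form of a TFIIA chain, with 0 counts in the TSA library and 1 in the untreated library.

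PolyA RNA was sequenced from the liver of FVB/N mice that had received hydrodynamic injections of c-Myc, a fast, large-volume delivery through the tail vein by which hepatocytes take up DNA. The TSA group is 1 liver library from such mice given TSA, and the untreated group is 1 liver library from such mice given no treatment. Both groups therefore carry injected c-Myc, and the study as labelled asks what TSA does to a liver cancer model driven by it. Dose, duration, age, sex, the number of animals behind a library and whether tumour or whole liver was taken are details that the labels leave out.

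Polymerase I transcribes the large ribosomal RNA precursor in the nucleolus, polymerase II messenger RNAs and many small nuclear RNAs, and polymerase III transfer RNAs, 5S ribosomal RNA and other short RNAs. Each enzyme has its own pair of large catalytic subunits, while a set of small subunits is common to all of them and a further pair is shared by polymerases I and III. MYC is known to raise transcription by all 3 polymerases, and rapidly growing cells make much ribosomal and transfer RNA.

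Depth was alike, at 17088227 counts and 14958 detected genes with TSA and 17281523 counts and 15292 detected genes without it. Ratios are TSA over untreated after scaling by TMM, a method that assumes most genes do not differ. Ratios below 1 are turned over and written as a fold lower, and parentheses hold the 95% interval, which covers counting error only. Levels are also given as the deposited FPKM, fragments per kilobase of gene model scaled to the total count of the library, so FPKM values differ by the total-count ratio and not by the TMM ratio. With 1 library per group there is no replicate check and no p-value. To be called, a gene had to differ at least 2-fold in either direction with an interval that excludes 1. By that rule 26.0% of all genes tested were called higher and 27.4% lower with TMM. More genes were thus called than not, so by these calls the assumption behind TMM was not met. The median log2 ratio of all genes tested was -0.11 with TMM and -0.96 with total counts, a shift of 0.85 that moves every gene alike. Marker genes of several cell types differed between the libraries. The summed level of 8 hepatocyte markers was 157790 CPM (TMM-scaled) in the TSA library and 6610 in the untreated library, with 8 of 8 called higher. Endothelial markers (7 of 8 higher) summed to 609 and 109 CPM in the same order, and erythroid markers (6 of 6 tested higher, *Hba-a2* at 0 counts with TSA) to 359 and 70.9 CPM. Cell division markers, 8 of 8 lower, summed to 20.8 CPM with TSA and 1510 CPM without it. Macrophage markers gave 5 higher and 2 lower of 8, and stellate markers 4 and 1 of 8, where all genes gave 26.0% and 27.4%. Cholangiocyte markers gave 3 and 2 of 5 tested, and lymphocyte markers 4 and 0 of 6. The sums of these lists, in that order, were 704, 567, 50.7 and 14.9 CPM with TSA. They were 620.0, 330, 49.3 and 8.23 CPM without it. *Cftr* of the cholangiocyte list had 0 counts with TSA. With total counts the macrophage and stellate lists each gave 3 higher and 3 lower, hepatocyte markers 7 higher and endothelial markers 5 higher, and cell division markers again 8 lower. At that scaling cholangiocyte markers gave 2 higher and 2 lower, lymphocyte markers 4 and 1, and erythroid markers 6 and 0. All genes tested gave 16.0% higher and 48.7% lower there. In bulk liver, fewer cells of a type and less RNA per cell cannot be told apart, and the part of these markers in the results below was not tested.

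Polymerase and general factor genes were lower in the TSA library more often than genes at large. Of the 50 members 27, or 54.0%, were called lower, where 27.4% of all genes tested were, and 1 was called higher, where 26.0% were. The median log2 ratio of the members was -1.15, which is 1.04 below the median of all genes. Relative to that median, a comparison that scaling does not touch, 44 of 50 members lay below it. Together the members took 0.117% of all counts in the TSA library and 0.422% in the untreated library. Those are shares of total counts without TMM scaling, so they carry the shift between the 2 scalings. With total counts 43 members, or 86.0%, were called lower and 0 higher, where 48.7% of all genes were lower and 16.0% higher. The polymerase genes gave 17 lower and 1 higher of 28, and the general factor genes 10 lower and 0 higher of 22. With total counts the specific subunits of polymerases I, II and III were lower in 3 of 3, 6 of 7 and 9 of 10 cases, against 3, 5 and 4 with TMM, so how far polymerase III differs from the others in calls rests on the scaling. The genes nearest the threshold for a lower call were *Gtf2f1*, inside it at 2.19-fold lower, and *Polr3b*, outside it at 1.97-fold lower.

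**Figure D1:**
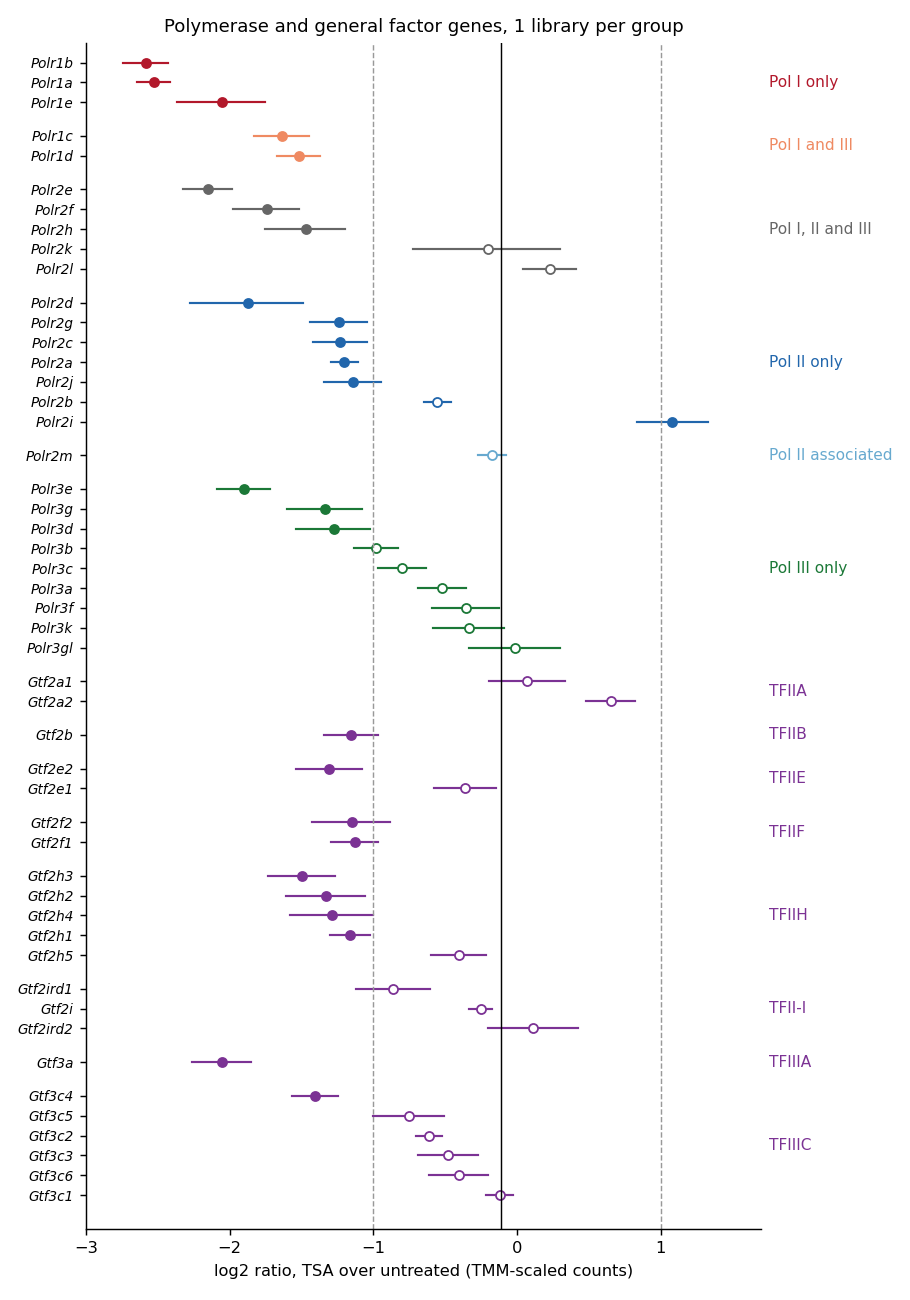
Log2 ratio of TSA over untreated for the members, from TMM-scaled counts of 1 library per group, grouped by enzyme or factor. Bars are 95% counting intervals, filled points are called genes, the solid line is the median of all genes (-0.11) and dashed lines mark a 2-fold difference. *Polr1b* and *Polr1a* lie farthest to the left, near -2.5, and *Polr2i* is the filled point on the right.

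Polymerase I showed the largest differences. Its 3 specific members were all called lower, with log2 ratios between -2.58 and -2.05. These point values lay below the range of the genes specific to polymerase II (-1.87 to 1.08) and to polymerase III (-1.90 to -0.02). Shared subunits are left out of these ranges, and 1 of them, *Polr2e*, lay at -2.15, below *Polr1e*. Of all genes tested, 8.49% had a lower ratio than *Polr1b* and 12.1% a lower ratio than *Polr1e*. The counting interval of *Polr1e* overlapped those of *Polr2d* and *Polr3e*. Relative to *Polr3e* within a library, *Polr1e* was 1.11-fold lower with TSA (0.867 to 1.43). *Polr1a*, for the largest catalytic subunit, had 642 counts (5.92 FPKM) in the TSA library and 6761 counts (61.7 FPKM) in the untreated library. It had the most counts of any member without treatment and was 5.77-fold (5.32 to 6.27) lower with TSA. *Polr1b*, for the second large catalytic subunit, had 369 counts (3.95 FPKM) with TSA and 4036 counts (42.7 FPKM) without it. Its 5.99-fold (5.39 to 6.69) lower level was the largest difference of any member. *Polr1e*, for PAF53, part of a pair of chains that resembles the factor TFIIF, had 101 counts with TSA and 765 without it, 4.15-fold (3.37 to 5.16) lower.

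Further polymerase I subunits are listed under older symbols that the member rule does not match, and they did not all follow. *Cd3eap*, for PAF49, the partner of PAF53, had 104 counts with TSA and 893 without it and was 4.70-fold (3.84 to 5.82) lower. The exons of *Cd3eap* overlap those of *Ercc1* on the opposite strand in GENCODE M21, a gene with 49 counts with TSA and 276 without it. *Twistnb*, for the stalk subunit RPA43, had 183 and 383 counts in the same order and was not called, at 1.15-fold lower (0.959 to 1.38). *Znrd1*, for the zinc ribbon subunit RPA12 that helps cleave the nascent RNA, had 151 counts with TSA and 215 without it, a ratio of 1.28 (1.03 to 1.59), also not called, while with total counts it lay 1.41-fold below the untreated level. Its antisense neighbour *Znrd1as* had 80 counts with TSA and 42 without it, and reads of both strands may not be separated because the strand setting is not given. With these genes the median of the 6 polymerase I genes was -2.14 rather than -2.53, and their range, up to 0.36, overlapped those of the other enzymes.

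Polymerase II was lower to a smaller extent. Of its 7 specific subunits 5 were lower and 1 was higher, with a median log2 ratio of -1.20. *Polr2a*, for the largest subunit, whose C-terminal repeats are phosphorylated as transcription proceeds, had 1173 counts (10.2 FPKM) with TSA and 4924 counts (42.3 FPKM) without it. It was 2.30-fold (2.16 to 2.45) lower. *Polr2c* and *Polr2j*, for the subunits RPB3 and RPB11 on which the enzyme is assembled, were 2.35-fold (2.06 to 2.68) and 2.21-fold (1.93 to 2.53) lower. The stalk genes were both lower. *Polr2d*, for RPB4, had 64 counts with TSA and 427 without it, 3.66-fold (2.81 to 4.83) lower, and *Polr2g*, for RPB7, had 262 and 1131 in the same order, 2.37-fold (2.07 to 2.72) lower. *Polr2b*, for the second large subunit, had 1338 counts with TSA and 3585 without it. At 1.47-fold lower (1.38 to 1.56) it was not called, although its interval excludes 1. *Polr2m* encodes Gdown1, which binds the assembled enzyme, and was not called at 1.13-fold lower, with 1214 counts with TSA and 2499 without it.

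*Polr2i* stood alone among the members in being called higher. It encodes RPB9, the zinc ribbon subunit of polymerase II that contributes to accurate transcription, and had 300 counts (25.4 FPKM) with TSA and 259 counts (21.7 FPKM) without it. Its ratio was 2.11 (1.78 to 2.51) with TMM, and 1.17 with total counts, where it was not called. Relative to the other polymerase II subunits within the same library, which scaling does not touch, it was 4.23-fold (3.55 to 5.03) higher with TSA. *Polr2i* provided 22.2% of the summed FPKM of the 7 polymerase II genes with TSA and 5.88% without it. Its exons overlap those of *Tbcb* on the opposite strand in GENCODE M21, a gene with 207 counts with TSA and 411 without it. The start of the gene is shown because it is the exception in direction, as 250 bases before and 50 after the start listed by RefSeq (GRCm38.p6, chr7:30231824-30232123, plus strand). The capitals mark the one match, 78 bases before the start, to CATGCGC, the core of an NRF1 motif on either strand.

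Polr2i: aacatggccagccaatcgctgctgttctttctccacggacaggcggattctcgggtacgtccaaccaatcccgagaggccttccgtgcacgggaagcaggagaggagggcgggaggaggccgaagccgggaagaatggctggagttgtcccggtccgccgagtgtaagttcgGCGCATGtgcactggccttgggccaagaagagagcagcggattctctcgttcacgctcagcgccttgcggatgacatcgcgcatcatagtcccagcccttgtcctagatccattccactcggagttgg

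The NRF1 core was found in the windows of 5 of the 43 members that RefSeq's promoter table holds (11.6%) and in 7.65% of tested genes. Besides *Polr2i* those members were *Gtf2f1*, *Gtf3a* and *Polr2j*, all called lower, and *Polr2b*, which was not called. The core is thus not particular to the gene called higher. A match is a description of the letters, not a binding site.

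The subunits common to all 3 polymerases split. *Polr2e*, for RPB5, had 329 counts (19.1 FPKM) with TSA and 2669 counts (153 FPKM) without it, the highest FPKM of any member in the untreated library, and was 4.44-fold (3.96 to 5.0) lower. *Polr2f*, for RPB6, was 3.35-fold (2.86 to 3.94) lower, with 183 counts with TSA and 1118 without it. *Polr2h*, for RPB8, had 131 and 663 counts in the same order and was 2.77-fold (2.30 to 3.37) lower. The other two, for the small zinc-binding subunits RPB12 and RPB10, were not called. *Polr2k* was at 1.15-fold lower (0.812 to 1.65). *Polr2l*, with 412 counts with TSA and 643 without it, had a ratio of 1.17 (1.03 to 1.33) with TMM and was 1.54-fold lower with total counts. Both subunits shared by polymerases I and III were lower. *Polr1c*, for AC40, had 267 counts with TSA and 1516 without it and was 3.11-fold (2.73 to 3.56) lower, and *Polr1d*, for AC19, had 429 and 2242 and was 2.86-fold (2.58 to 3.18) lower.

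Polymerase III genes had no call in either large catalytic subunit with TMM. Of its 10 specific members 4 were lower and 0 higher, and their median log2 ratio was -0.89. *Polr3e*, for RPC5 of the TFIIF-like pair, had 271 counts (3.48 FPKM) with TSA and 1847 counts (23.5 FPKM) without it, and was 3.73-fold (3.29 to 4.26) lower. Its partner *Polr3d*, for RPC4, was 2.42-fold (2.03 to 2.90) lower, with 156 counts with TSA and 689 without it. Neither large subunit passed the threshold with TMM. With total counts both were called, *Polr3a* at 2.59-fold and *Polr3b* at 3.56-fold lower. *Polr3a* had 414 counts with TSA and 1084 without it, 1.43-fold lower (1.28 to 1.61), and *Polr3b* had 440 and 1585, 1.97-fold lower (1.77 to 2.20). Other uncalled genes were *Polr3c* and *Polr3f*, for RPC3 and RPC6 of the subcomplex that opens promoters, at 1.74-fold and 1.28-fold lower, and *Polr3k*, for the zinc ribbon subunit RPC10, at 1.26-fold lower.

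The window at the start of *Polr3e* is printed because RefSeq places most of a polymerase III gene inside it. The leucine transfer RNA gene n-TLaag4 runs over chr7:120917517-120917598 and ends 179 bases before the *Polr3e* start. The window (GRCm38.p6, chr7:120917528-120917827, plus strand) holds the B box of transfer RNA genes, the element that TFIIIC binds, and an E-box. In the sequence below capitals mark GGTTCGAATCC, which begins 201 bases before the start and fits the B box consensus GGTTCGANNCC, and CACGTG, the E-box that MYC with MAX can bind, which begins at base 6 of the transcript.

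Polr3e: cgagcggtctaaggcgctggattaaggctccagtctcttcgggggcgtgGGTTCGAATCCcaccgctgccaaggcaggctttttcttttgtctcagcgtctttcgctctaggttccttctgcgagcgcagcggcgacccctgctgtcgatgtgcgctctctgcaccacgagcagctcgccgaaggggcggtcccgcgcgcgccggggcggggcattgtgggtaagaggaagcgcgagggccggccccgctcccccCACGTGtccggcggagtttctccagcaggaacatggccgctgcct

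A B box was found on either strand in 1 of 43 members and in 40 of 27025 genes of the promoter table, a search added after this sequence had been seen. The E-box, which reads the same on both strands, was found in 10 of 43 members, against 11.5% of tested genes and 8.09% of all genes in the table. Those members were *Gtf2a1*, *Gtf2f1*, *Gtf2h1*, *Gtf2h5*, *Gtf2ird2*, *Gtf3c6*, *Polr2h*, *Polr3c*, *Polr3e* and *Polr3gl*. None of the 3 polymerase I windows held it in these 300 bases. Other motifs searched on both strands were CCGGAAG of ETS factors, in 16 of 43 members and 19.1% of tested genes, TATAAA, in 5 members and 9.25%, and AAGATGG of YY1, in 3 members and 8.27%. *Gtf2e2*, *Polr2d*, *Polr2g*, *Polr2k*, *Polr3a* and *Polr3d* were among the members not matched in that table.

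The subunit RPC7 of polymerase III exists in 2 forms from separate genes, and these differed between the libraries. *Polr3g* encodes the form known from embryonic stem cells and many tumours, and *Polr3gl* the form found broadly in differentiated tissue. *Polr3g* had 150 counts (2.87 FPKM) with TSA and 690 counts (13.05 FPKM) without it and was 2.52-fold (2.11 to 3.03) lower. *Polr3gl* had 129 counts (5.29 FPKM) with TSA and 238 counts (9.65 FPKM) without it, and was not called at 1.01-fold lower (0.813 to 1.26). Per length, *Polr3g* thus made up 35.2% of the FPKM of both forms in the TSA library and 57.5% in the untreated library, so the more abundant form was not the same in the libraries. The quotient of their counts was 2.49-fold (1.87 to 3.32) lower with TSA, a value that scaling does not touch. With raw counts, which favour the longer *Polr3g* transcript, its share was 53.8% with TSA (exact binomial 95% interval 47.7% to 59.7%) and 74.4% without it (71.4% to 77.1%).

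**Figure D2:**
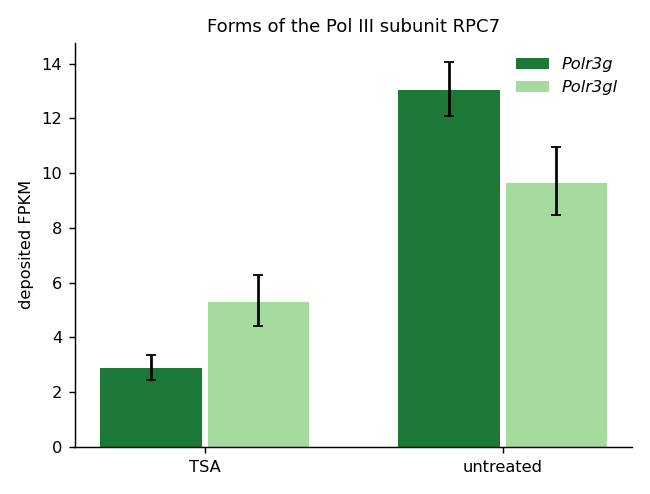
Deposited FPKM of *Polr3g* and *Polr3gl* in the TSA library and the untreated library, 1 library each, with bars for the exact Poisson 95% interval of the count. *Polr3gl* is the taller bar with TSA (5.29 against 2.87 FPKM) and *Polr3g* the taller bar without it (13.05 against 9.65 FPKM).

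The starts of both genes are shown because the forms differ in response. For *Polr3g* (GRCm38.p6, chr13:81710964-81711263, minus strand) the capitals mark the ETS core CCGGAAG read on the opposite strand, 29 bases before the start. For *Polr3gl* (chr3:96594132-96594431, minus strand) they mark the E-box, 194 bases before the start.

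Polr3g: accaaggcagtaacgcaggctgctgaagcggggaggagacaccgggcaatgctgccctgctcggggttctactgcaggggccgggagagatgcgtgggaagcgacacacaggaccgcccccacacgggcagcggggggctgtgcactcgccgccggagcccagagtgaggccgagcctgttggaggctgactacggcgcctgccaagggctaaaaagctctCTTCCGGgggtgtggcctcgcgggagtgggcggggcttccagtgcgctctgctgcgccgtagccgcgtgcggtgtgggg
Polr3gl: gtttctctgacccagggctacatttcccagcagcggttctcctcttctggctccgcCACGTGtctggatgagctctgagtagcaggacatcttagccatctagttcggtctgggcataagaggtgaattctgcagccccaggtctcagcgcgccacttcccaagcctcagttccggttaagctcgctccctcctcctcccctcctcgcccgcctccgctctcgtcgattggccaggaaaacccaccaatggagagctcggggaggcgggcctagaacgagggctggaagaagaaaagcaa

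Set side by side per length, the largest subunits of polymerases I and II were not in the same order in the libraries. In the TSA library *Polr1a* was at 5.92 FPKM and *Polr2a* at 10.2 FPKM, a quotient of 0.581. In the untreated library *Polr1a* exceeded *Polr2a*, at 61.7 against 42.3 FPKM, a quotient of 1.46. *Polr1b* lay below *Polr2b* in both libraries, with quotients of 0.192 with TSA and 0.785 without it. The mean FPKM of the specific subunits of polymerases I, II and III was 3.83, 16.4 and 4.71 in the TSA library and 38.8, 52.7 and 16.4 in the untreated library. Those polymerase I means cover *Polr1a*, *Polr1b* and *Polr1e* only. With the older symbols, the summed FPKM of 6 polymerase I genes was 29.3 with TSA and 163.8 without it. For the 10 polymerase III genes the sums were 47.1 and 164.2. Relative to polymerase II, the summed counts of the polymerase I genes were 3.04-fold (2.83 to 3.27) lower with TSA. With *Cd3eap*, *Twistnb* and *Znrd1* included that value was 2.46-fold (2.31 to 2.63). The same quotient for polymerase III over polymerase II was 1.06-fold lower (1.004 to 1.13), so its interval barely excluded 1. Polymerase I relative to polymerase III was 2.86-fold (2.65 to 3.08) lower. These sums weigh long, abundant transcripts most and share 1 library per group. The medians gave polymerase II the larger difference beside polymerase III, at -1.09 and -0.78 relative to all genes, but with shared subunits counted in each enzyme they were -1.11 and -1.16.

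**Figure D3:**
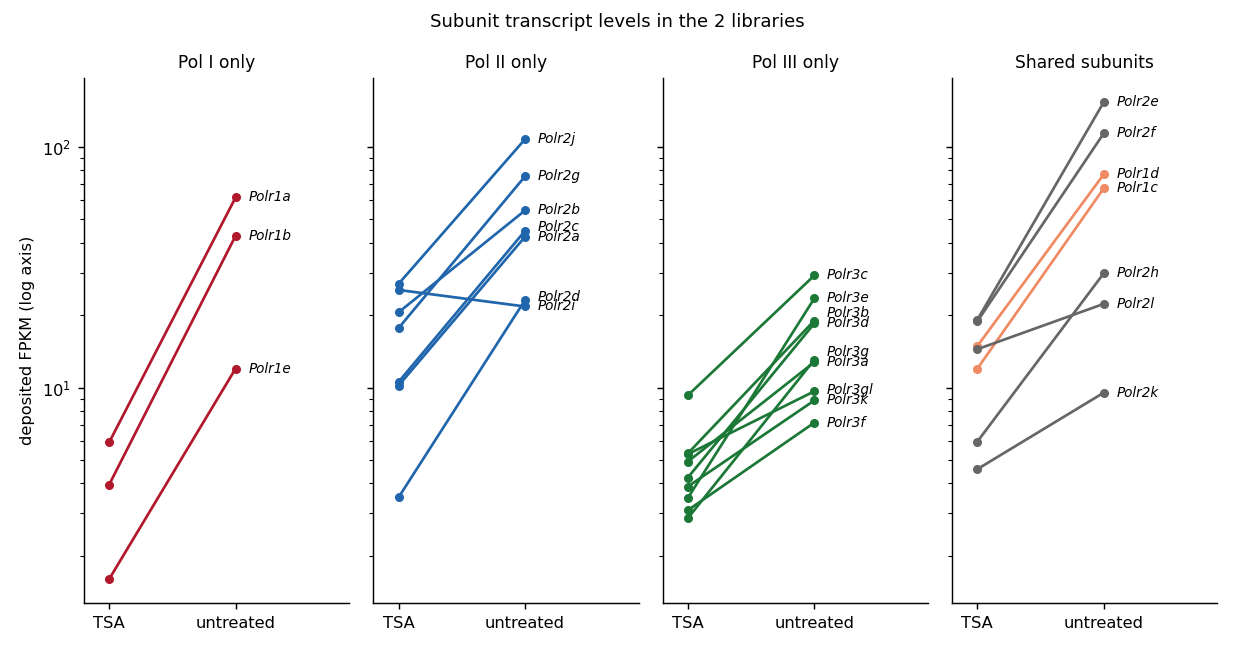
Deposited FPKM on a log axis for polymerase subunits in the TSA library (left of each panel) and the untreated library (right), 1 library each, with a line joining the values of 1 gene. FPKM is scaled to total counts. *Polr1a* and *Polr1b* have the steepest lines, and in the polymerase II panel *Polr2i* alone is higher on the left (25.4 against 21.7 FPKM).

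Counterpart subunits, which occupy like places in the 3 enzymes, were compared next. Among the largest subunits the order was *Polr1a*, *Polr2a* and *Polr3a*, at 5.77-fold, 2.30-fold and 1.43-fold lower, and their intervals did not overlap. Relative to *Polr2a* within a library, *Polr1a* was 2.51-fold (2.26 to 2.79) lower and *Polr3a* 1.60-fold (1.40 to 1.83) higher with TSA. Among the second large subunits *Polr1b* was 5.99-fold, *Polr3b* 1.97-fold and *Polr2b* 1.47-fold lower, so polymerases II and III changed places. Counts of *Polr2b* may include reads of *Igfbp7* on the opposite strand, a gene with 1300 counts with TSA and 1015 without it. In the assembly platform the pair shared by polymerases I and III, *Polr1c* and *Polr1d*, was 1.30-fold (1.14 to 1.47) lower than *Polr2c* and *Polr2j* in summed counts. The TFIIF-like chains were called lower in every enzyme. *Polr1e* and *Cd3eap* of polymerase I were 4.15-fold and 4.70-fold lower, *Polr3e* and *Polr3d* of polymerase III 3.73-fold and 2.42-fold, and *Gtf2f2* and *Gtf2f1*, for TFIIF itself, 2.22-fold and 2.19-fold. With TMM the zinc ribbon subunits were called lower in none, with *Znrd1* (1.41-fold lower with total counts) and *Polr2i* at ratios of 1.28 and 2.11 and *Polr3k* at 1.26-fold lower, although with total counts *Polr3k* was called, at 2.28-fold lower. Against the largest subunit of its own enzyme, *Znrd1* was 7.39-fold (5.87 to 9.29) and *Polr2i* 4.86-fold (4.05 to 5.83) higher with TSA. *Polr3k* differed from *Polr3a* by 1.14-fold (0.922 to 1.40). This grouping by place was made after the values had been seen.

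**Figure D4:**
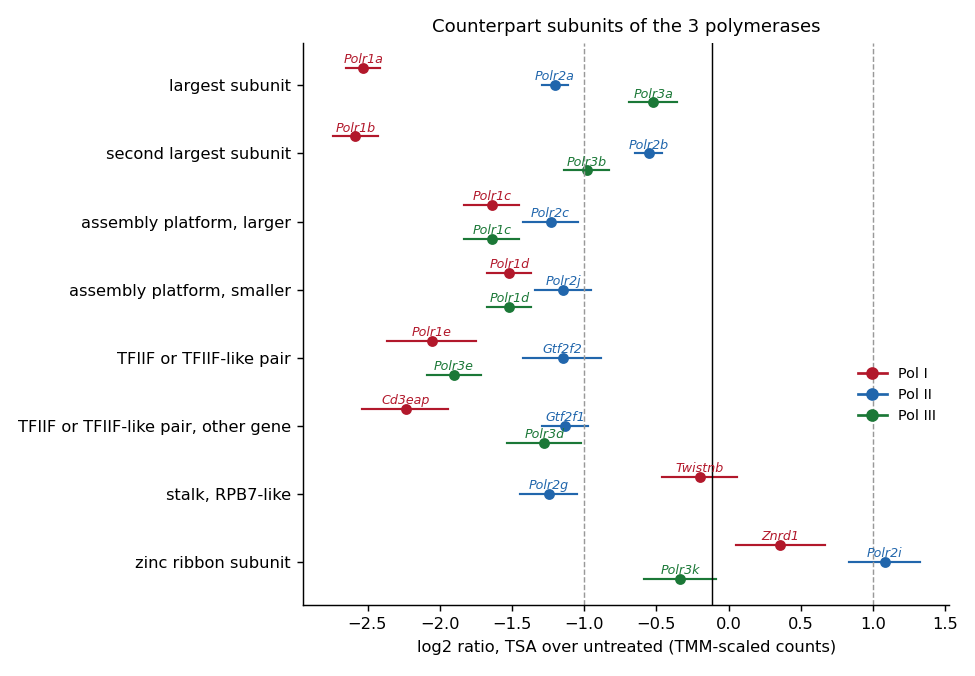
Log2 ratio of TSA over untreated (TMM-scaled counts, 1 library per group) for subunits with like places in polymerases I, II and III, with 95% counting intervals. The solid line is the median of all genes and dashed lines mark 2-fold. *Polr1c* and *Polr1d* are drawn in 2 enzymes because they belong to both. The zinc ribbon row lies to the right of -0.5, while the TFIIF rows lie to the left of -1.

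General factors of polymerase II were lower in 8 of 12 cases and higher in 0, with a median log2 ratio of -1.15. *Gtf2b*, for TFIIB, which bridges the TATA-binding protein and the enzyme, had 293 counts (13.7 FPKM) with TSA and 1190 counts (55.0 FPKM) without it, 2.23-fold (1.96 to 2.54) lower. Both chains of TFIIF, which travels with the enzyme to the promoter, were lower: *Gtf2f1* had 393 counts with TSA and 1571 without it, and *Gtf2f2* 142 and 575. Of 5 core subunits of TFIIH, the helicase and kinase complex that opens DNA and also serves excision repair, 4 were lower. *Gtf2h3*, for p34, had the largest difference, with 183 counts with TSA and 942 without it, 2.82-fold (2.40 to 3.32) lower, followed by *Gtf2h2* (2.51-fold), *Gtf2h4* (2.44-fold) and *Gtf2h1* (2.24-fold). *Gtf2h5*, for the small subunit p8, had 314 and 760 counts and was not called at 1.33-fold lower (1.16 to 1.52). The chains of TFIIE, which recruits TFIIH, parted. *Gtf2e2* had 192 counts with TSA and 868 without it, 2.48-fold (2.12 to 2.91) lower, and *Gtf2e1* had 257 and 603, not called at 1.29-fold lower. The counts of TFIIA, which steadies the TATA-binding protein on DNA, were 510 for *Gtf2a2* with TSA against 593 without it, and 190 for *Gtf2a1* against 330. The ratios were 1.57 (1.39 to 1.77) for *Gtf2a2* and 1.05 (0.874 to 1.26) for *Gtf2a1*, neither of them called. With total counts both lay below the untreated level, by 1.15-fold and 1.72-fold.

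The TFII-I genes, whose products act as regulators rather than as core factors, held no call with TMM. With total counts 2 of 3 were lower, where 48.7% of all genes were. *Gtf2i* had the most counts among the Gtf2 and Gtf3 members, with 1938 with TSA and 4215 without it, at 1.19-fold lower (1.13 to 1.26). *Gtf2ird1* was at 1.82-fold lower, with 165 and 547 counts, and *Gtf2ird2* at a ratio of 1.08, with 138 and 233, which became 1.67-fold lower with total counts.

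Factors of polymerase III were divided between TFIIIA and TFIIIC. *Gtf3a* encodes TFIIIA, the zinc finger protein that starts 5S ribosomal RNA transcription, and had 224 counts (10.1 FPKM) with TSA and 1697 counts (75.7 FPKM) without it. It was 4.15-fold (3.61 to 4.79) lower, the largest difference among the Gtf2 and Gtf3 members. TFIIIC binds the promoters of transfer RNA genes. With total counts 5 of its 6 subunit genes were called lower (83.3%, beside 48.7% of all genes). With TMM 1 was, or 16.7%, below the 27.4% of all genes. That gene was *Gtf3c4*, with 386 counts with TSA and 1863 without it, 2.64-fold (2.37 to 2.96) lower. The others lay between 1.09-fold lower for *Gtf3c1*, with 1390 and 2759 counts, and 1.69-fold lower for *Gtf3c5*, with 180 and 554. *Gtf3c2*, *Gtf3c3* and *Gtf3c6* were at 1.53-fold, 1.39-fold and 1.33-fold lower. Relative to the summed counts of TFIIIC in the same library, *Gtf3a* was 2.83-fold (2.45 to 3.29) lower with TSA, and TFIIIC relative to the polymerase III subunits was 1.36-fold (1.28 to 1.44) higher.

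Genes around this machinery were read from lists set by function. In the pausing and elongation list of polymerase II 11 of 20 were lower and 1 was higher. *Ssrp1*, for a subunit of the histone chaperone FACT, had 1065 counts with TSA and 8151 without it, 4.19-fold (3.93 to 4.47) lower. *Ell2*, for an elongation factor, went the other way, with 1428 and 310 counts, 8.41-fold (7.43 to 9.54) higher. Of 8 polymerase I factors 3 were lower (37.5%, beside 27.4% of all genes) and 5 were not called. Among the lower ones, *Ubtf*, for the architectural factor UBF of ribosomal genes, was at 3.40-fold (3.16 to 3.65). *Taf1c*, for a subunit of the selectivity factor SL1, was at 5.31-fold (4.005 to 7.16). In TFIID 4 of 17 were lower (23.5%, below the 27.4% of all genes), and *Taf9b* was higher on few counts, 23 with TSA and 18 without it. *Taf15* had most counts there and was not called at 1.32-fold lower, while *Taf4b* was 6.25-fold (4.81 to 8.24) lower. Of the other TFIIH genes 3 of 5 were lower, with the helicase gene *Ercc2* at 2.90-fold (2.55 to 3.33).

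Mediator, the complex that relays signals from activators to polymerase II, had 13 of 32 genes lower and 0 higher, with *Med26* at 5.39-fold (3.90 to 7.62) lower and *Med1* not called at 1.78-fold lower. Of 9 genes for TFIIIB, SNAPc and the polymerase III repressor MAF1, 1 was lower, *Snapc4* at 4.62-fold (3.93 to 5.47), and *Bdp1* of TFIIIB was not called at 1.81-fold lower. Polymerase assembly genes were lower in 5 of 9 cases. *Ruvbl2*, for an ATPase of the chaperone complex that helps build the enzymes, had 244 counts with TSA and 3581 without it, 8.04-fold (7.06 to 9.19) lower. In mitochondrial transcription, which uses a separate enzyme of the single-subunit type, 2 of 10 were lower, the paralogs *Mterf1a* and *Mterf1b* on few counts, and *Tfam* was not called at 1.89-fold lower. The mitochondrial list (2 of 10) and the TFIIIB, SNAPc and MAF1 list (11.1%), like TFIID, did not exceed the share of all genes called lower. With total counts the lists gave 17 lower and 1 higher for pausing and elongation, and 5 and 0 for polymerase I factors. The values were 14 and 0 for TFIID, 5 and 0 for the other TFIIH genes and 25 and 0 for Mediator. They were 7 and 0 for each of the last 3 lists. At that scaling 48.7% of all genes tested were called lower and 16.0% higher. List medians relative to all genes ran from -1.08 for polymerase assembly to -0.53 for TFIIIB, SNAPc and MAF1, leaving aside the polymerase I subunits under older symbols at -0.09.

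**Figure D5:**
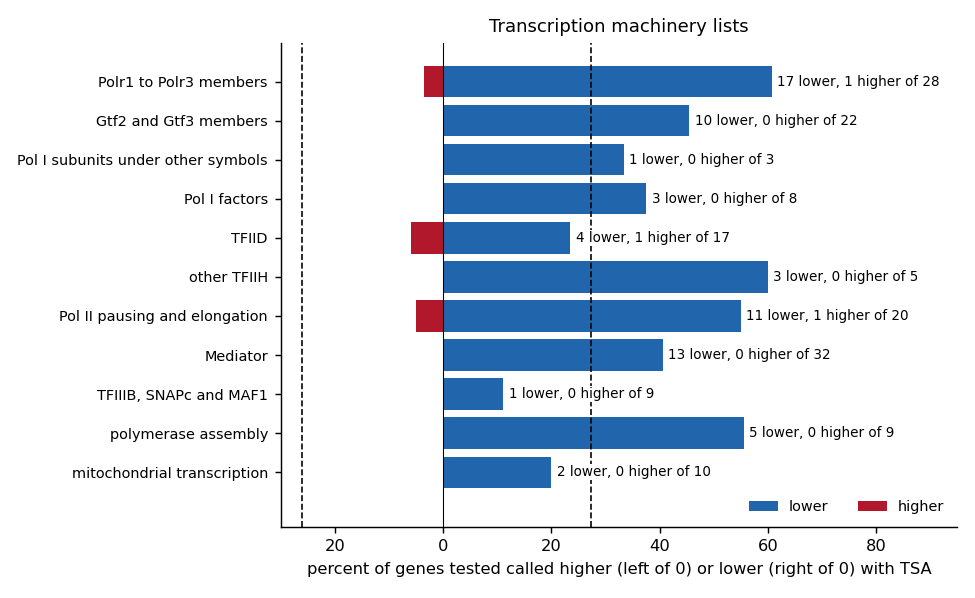
Percent of tested genes called lower (right of 0) or higher (left of 0) in the TSA library, for the members and for lists of related genes, with TMM scaling. Dashed lines are the shares of all genes called lower (27.4%) and higher (26.0%). The polymerase members (17 of 28) have the longest bar, and TFIIIB with SNAPc and MAF1 (1 of 9) the shortest.

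Several members share sequence with a gene on the other strand. In GENCODE M21 the exons of 9 members overlap those of another listed gene, all on the opposite strand. Among them are *Gtf2ird2* with *Ncf1*, *Gtf3a* with *Mtif3*, *Polr2b* with *Igfbp7*, *Polr2c* with *Dok4*, *Polr2f* with *1700088E04Rik*, *Polr2h* with *Clcn2*, *Polr2i* with *Tbcb* and *Polr2j* with *Lrwd1*. Their counts may include reads of the neighbour. *Igfbp7* had 1300 counts with TSA and 1015 without it, and *Clcn2* had 1100 and 428. As a description, Spearman's rho between gene model length and the log2 ratio was 0.14 over the 50 members, -0.13 over the 28 polymerase genes, 0.43 over the 22 general factor genes and 0.00039 over all 13027 genes, all from the same pair of libraries.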

How the data were processed

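PolyA RNA was measured in 2 liver libraries, grouped by the treatment label. The deposited counts are whole, unscaled reads per gene symbol, per the file headers. The deposited FPKM values are those counts per gene model length and library total, which the values bear out for all 14271 genes with counts in both libraries (tolerance 0.1 base). The submitters' processing notes list HISAT2, Bowtie2, Trimmomatic and DESeq without roles. No source used here gives the build, the annotation, the counter or whether strand was used.

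Libraries were scaled over the whole table by TMM in edgeR 4.0.16 (R 4.3.3), with factors of 0.744 for TSA and 1.34 for untreated. Alternatives were total counts, upper quartiles and the size factors of DESeq2 1.42.0. Genes with at least 20 summed counts were tested. Intervals of ratios are exact conditional binomial (Clopper-Pearson), and those of quotients within a library are exact conditional odds ratio intervals, all at 95%. Since reads carried no stated molecular identifiers and may be PCR copies, intervals cover counting error only and not variation between animals. Calls were also run on counts simulated with Poisson error only and scaled by total counts. That setting holds no variation between animals and no TMM scaling, so it does not test the calls reported here. Python 3.11.15 with scipy 1.17.1 was used.

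Members and lists were chosen with earlier results of these data known. Named are members called higher or lower, both RPC7 genes, the extremes of each enzyme and factor, and in each list the gene with most counts, the gene of largest difference with at least 50 summed counts and any gene called against its list. Quotients between enzymes, the grouping of counterpart subunits and the length correction were added after the data were seen. Promoter windows are from RefSeq GRCm38.p6, matched by symbol; the build of the files is not given, so coordinates refer to RefSeq only. Of the 50 members, 1 enters the counts and medians but is not reported here by name, in the text or the plots.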

Additional observations from a re-analysis of the deposited data

How the results depend on the processing

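The count of members called lower (27) and higher (1) did not move by over 1.5 times with DESeq2 size factors, upper quartiles, minimums of 1, 10 or 100 counts, FPKM with 0.1 added, a prior count of 2, thinning of the untreated counts to the depth of the other library or the added correction for gene model length (28 lower). With total counts 43 were lower and 0 higher, since the median of all genes shifts by 0.85. Of single members, total counts left 27 calls as they were, ended 1 call (*Polr2i*) and added 16. At 4-fold 5 were lower and 0 higher. At 1.5-fold 2 were higher, and with an interval bound of at least 2-fold 0 were higher and 23 lower. Medians relative to all genes did not depend on scaling. Without a count minimum they were -2.57 for polymerase I and -1.25 for polymerase II, because the median of all genes moved to 0.04. With shared subunits counted in each enzyme they were -1.58 for polymerase I and -1.16 for polymerase III. The share of *Polr3g* by raw counts was 53.8% with TSA and 74.4% without it. No direction of a called member was turned by any of these settings. No paired analysis was possible because each group has 1 library and the labels carry no replicate numbers, and no library could be left out. Depth limits *Polr2k* most, whose fold lower has an interval of 0.812 to 1.65.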
